A study of Mus musculus with 60 samples.

Results

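The clustered protocadherins were taken as every entry of the deposited gene tables whose symbol begins with Pcdha, Pcdhb or Pcdhg, which gave 59 of 47597 entries. Of these, 14 belong to the α subcluster, 22 to the β subcluster and 23 to the γ subcluster. The rule uses the name alone. All lie on chromosome 18 (GRCm38), on the plus strand in the 58 entries with a GENCODE M21 record, the α entries from 36930184 to 37187661, the β entries from 37264938 to 37524479 and the γ entries from 37661793 to 37841873.

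RNA-Seq had been done on brain tissue of c57BL-6N mice aged 3 months, with 6 libraries in each of 10 labelled groups, 3 from males and 3 from females. The Δ12 line, in which part of exon 12 of Htt (huntingtin) is deleted and a new splice donor is used, gave the genotypes +/+, Δ12/+ and Δ12/Δ12 for each tissue label, cortex or striatum. The KO line gave +/+ and KO/+ for each label and came from 1 founder in which the intended edit had failed and the normal splice donor was lost. The KO allele was present in heterozygous form only, and each line had its own +/+ littermates. The study asked whether the Δ12 allele alters gene expression in the adult brain.

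Clustered protocadherins are cadherin-like proteins of the neuronal surface. In the α and γ subclusters each gene has its own promoter and a large variable exon, which is spliced to constant exons shared by the whole subcluster, whereas each β gene is essentially a single exon. A neuron switches on a few of the alternate promoters, a choice tied to DNA methylation, CTCF and cohesin, whereas the C-type genes at the end of the α and γ subclusters (Pcdhac1, Pcdhac2, Pcdhgc3, Pcdhgc4 and Pcdhgc5) are used more constantly. The proteins bind identical combinations on other membranes, by which a neuron tells its own branches from those of its neighbors. In bulk tissue, fewer cells of a type and less RNA per cell cannot be told apart.

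Levels are FPKM (fragments per kilobase of transcript, scaled to a common number of mapped fragments) as deposited. They were divided by 1 factor per library, the median over genes of the ratio to the geometric mean of all libraries, and are called scaled FPKM. Depth was estimated from the deposited confidence bounds at 12.9 to 27.8 (median 17.2) per library, in units of 1000000 fragments. The median was 14.6 in the cortex-like and 18.5 in the striatum-like libraries defined next. From the same bounds, the effective number of fragments behind a member had a median over libraries between 4.00 (Pcdhb1) and 754 (Pcdhgc3), if an upper bound lies 2 SD above its value. Fragments on the shared exons have to be divided between members by the authors' software. Of the 75-base stretches of a member's GENCODE M21 transcripts, 42.7% to 59.3% also occur in another member for α, 26.4% to 63.8% for γ and 0% to 8.96% for β. The β values therefore rest almost wholly on sequence of their own. For Pcdha4, 40.0% of the stretches occur in a gene outside the family. The names of a few entries needed care. An entry deposited as Pcdhga8 has the identifier of Pcdhgc4 and is called so here, and 1 of 2 entries deposited as Pcdha11 lies at Pcdha10 and is called Pcdha10. Pcdhgb8 has 2 entries, of which the second, called Pcdhgb8-2, has no coordinates in GENCODE M21.

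The labels were checked against marker genes. Slc17a7, the vesicular glutamate transporter of cortical excitatory neurons, was above 100 FPKM as deposited in 30 libraries, which are called cortex-like, and below it in the other 30, called striatum-like. The lowest cortex-like library was at 120.8 FPKM and the highest striatum-like library at 64.75 FPKM. Drd2, the D2 dopamine receptor of striatal projection neurons, was at 0 to 15.9 scaled FPKM in the cortex-like and 34.8 to 71.3 in the striatum-like libraries. Each set held 15 libraries labelled cortex and 15 labelled striatum. All 30 cortex-like libraries were of the Δ12 line (+/+, Δ12/+ and the males labelled Δ12/Δ12). The striatum-like set held all 24 libraries of the KO line and the 6 females labelled Δ12/Δ12. The tissue labels thus did not follow the markers, and line and expression-defined tissue cannot be told apart except among the Δ12/Δ12 libraries, where labelled sex takes the place of line. Xist and Ddx3y, the sex-linked transcripts, went against the labelled sex in 30 of 60 libraries. Htt was as high as in the lowest +/+ library of its line and tissue label in 5 of the 12 libraries labelled KO/+ (FPKM as deposited), and gene-level values cannot show the Δ12 deletion. For 1 library, striatum KO/+ female 3, title and genotype label name different lines, and the genotype label was used. The library labelled cortex +/+ female 1 of the Δ12 line stood apart, with 8 members below 1e-06 FPKM and Htt at 4.81 scaled FPKM, the lowest of all cortex-like libraries. All groups are named by their labels. The labels number the mice, and nothing else says how separate the libraries of a group are, so p-values measure the spread between these libraries.

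The γ subcluster was more abundant in the striatum-like libraries, the β subcluster moderately so, and the α subcluster was not. The summed scaled FPKM of the 23 γ entries ranged from 49.7 to 90.3 (median 59.0, mean 61.2 ± 9.72 SD) in the 30 cortex-like libraries and from 126 to 189 (median 156.0, mean 156.2 ± 12.6 SD) in the 30 striatum-like libraries. The medians differ 2.64-fold, and no cortex-like library reached the lowest striatum-like one. The 22 β entries summed to 19.7 to 28.9 (median 25.1) and 32.4 to 43.6 (median 36.1), a ratio of 1.44, again without overlap. The 14 α entries summed to 18.9 to 33.2 (median 24.8) in the cortex-like and 20.3 to 25.4 (median 22.3) in the striatum-like libraries, and these ranges overlapped. The γ subcluster made up 46.6% to 63.8% of the summed level of all members in the cortex-like libraries and 69.6% to 76.0% in the striatum-like libraries. The share of the α subcluster was 17.4% to 27.7% in the former and 8.95% to 11.6% in the latter. These are descriptions without a test, since the sets were defined by measured values.

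**Figure D1:**
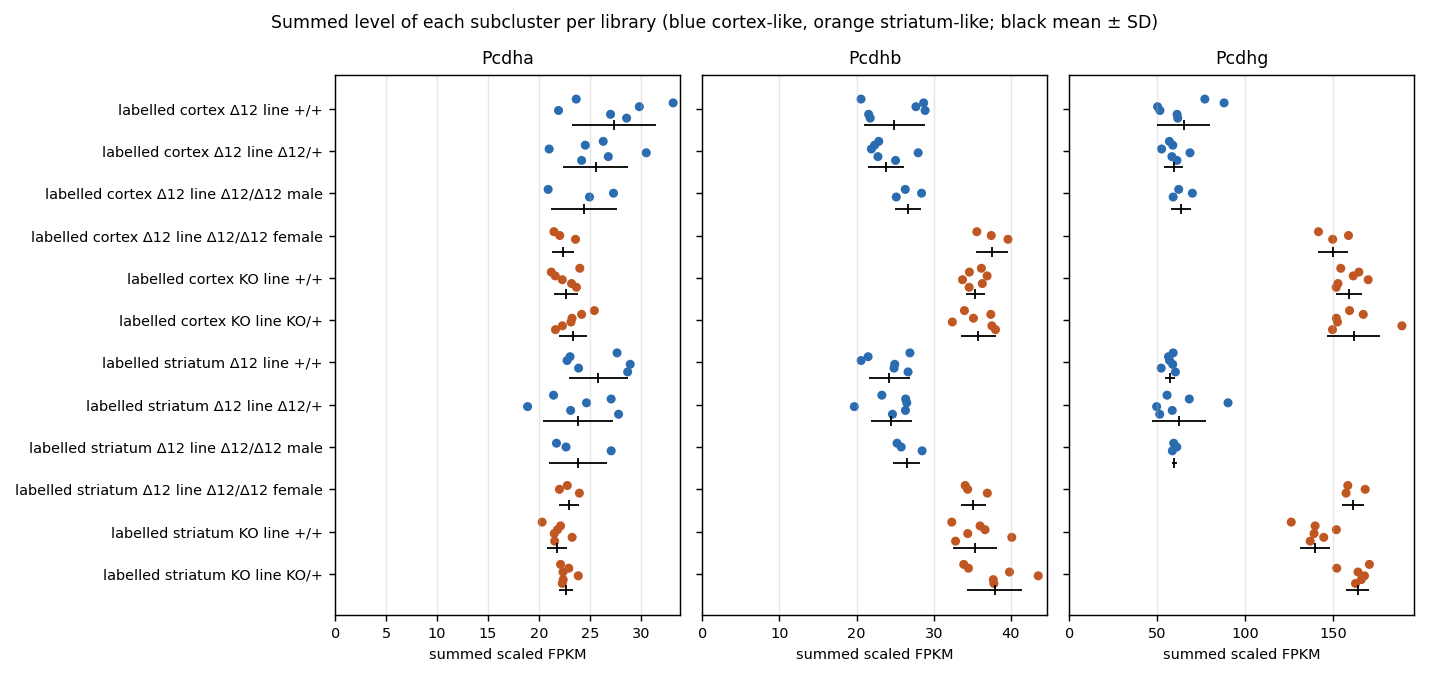
Summed scaled FPKM of the α (Pcdha), β (Pcdhb) and γ (Pcdhg) entries on the horizontal axes, 1 dot per library and 1 row per labelled group, with Δ12/Δ12 split by labelled sex (3 libraries each, 6 in the other rows), cortex-like libraries in blue, striatum-like in orange and the mean ± SD in black. The γ sums sit between 49.7 and 90.3 in the blue and between 126 and 189 in the orange libraries, whichever tissue the label names.

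Scaling matters for these sums. The median of all 16076 genes with a mean scaled FPKM of at least 0.5 differed by 0.06 (log2, striatum-like minus cortex-like) after scaling and by -0.25 without it. With FPKM as deposited, the γ sums still did not overlap (49.0 to 108 against 113 to 178), whereas the β sums did (21.7 to 38.4 against 26.5 to 37.4).

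Among the members, 56 of 59 had a mean of at least 0.5 scaled FPKM over all libraries, and those left out were Pcdha1, Pcdhb1 and Pcdhgb8. Of the 56, 51 had a higher mean log2 level in the striatum-like libraries. The ranges of the 2 sets did not overlap for 26 members, against 36.2% of all genes. In 24 of them the striatum-like libraries were wholly above, against 19.3% of all genes, and in 2 the cortex-like libraries were wholly above, against 16.9% of all genes. All 24 were γ or β genes, 18 of 22 γ and 6 of 21 β entries. Without the library that stood apart, 27 members had the striatum-like libraries wholly above (20.4% of all genes) and 2 had the cortex-like libraries wholly above (17.8%). With FPKM as deposited, 41 of the 56 were higher in the striatum-like libraries, so 10 members changed sides, among them 4 in the α subcluster. On that scale 13 members had the striatum-like libraries wholly above, against 9.97% of all genes, and 2 the cortex-like libraries, against 20.9%. The median difference of the 56 members was 0.67 on the log2(scaled FPKM + 0.5) scale, on which low genes appear to change less than they do, against 0.06 for all genes.

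**Figure D2:**
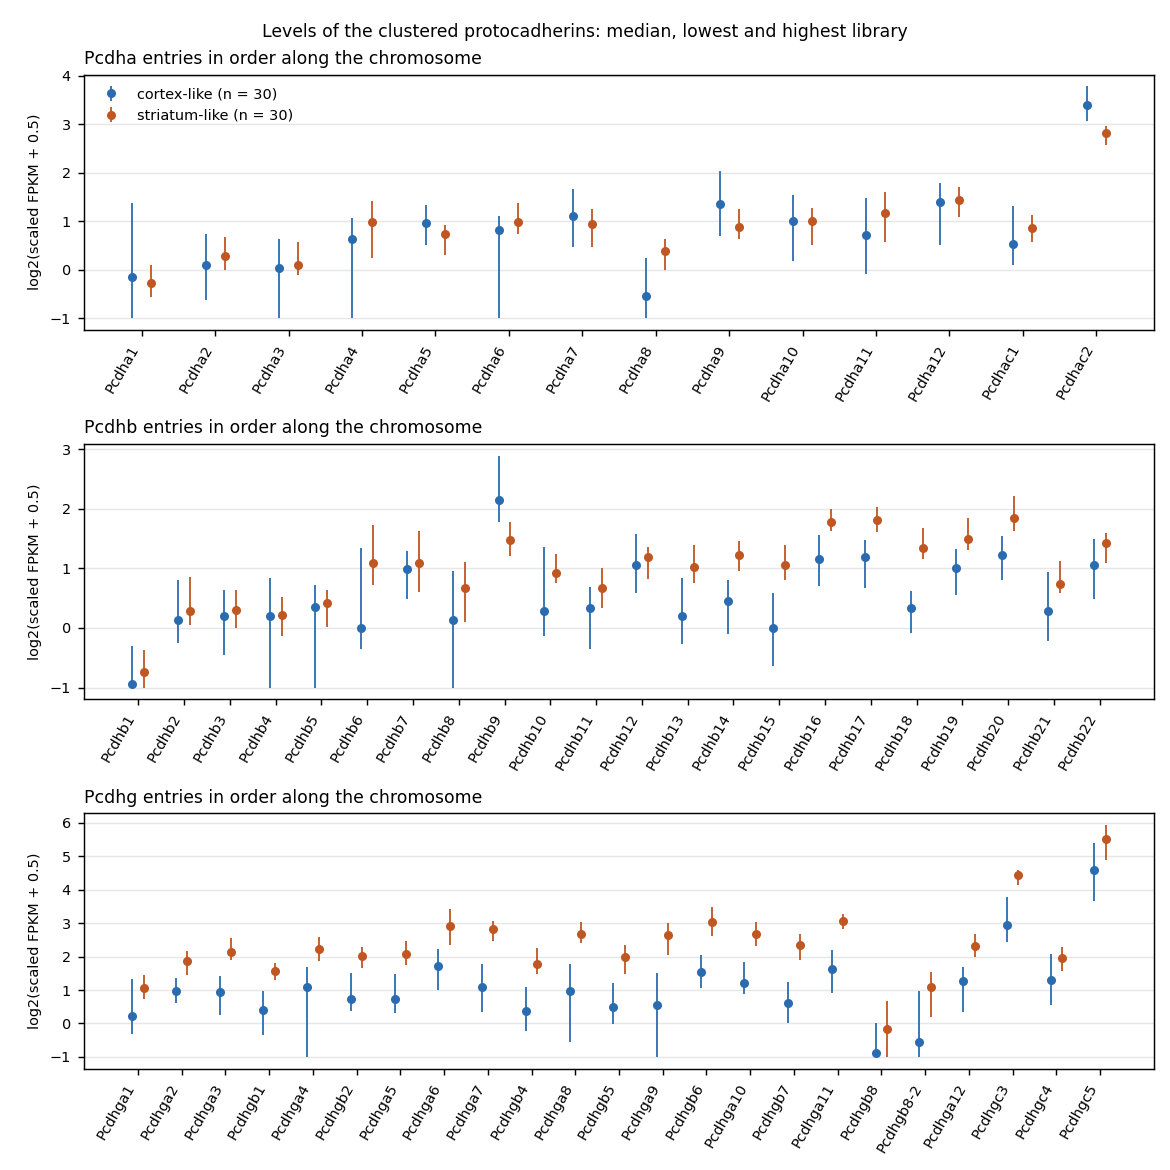
Levels of the 59 entries as log2(scaled FPKM + 0.5) on the vertical axes, in chromosomal order within the α, β and γ subclusters, with the median as a dot and the lowest and highest library as a bar (30 cortex-like libraries in blue, 30 striatum-like in orange). The orange medians lie above the blue ones for all 23 γ entries, whereas Pcdhac2 and Pcdhb9 show the opposite order without overlap.

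The C-type genes did not move as one group. Pcdhac2 ranged from 7.85 to 13.3 scaled FPKM (median 10.1) in the cortex-like and from 5.48 to 7.28 (median 6.54) in the striatum-like libraries, so that it was 1.55-fold higher in the former without overlap. Pcdhac1 was low, at 0.574 to 1.98 (median 0.950) and 0.985 to 1.68 (median 1.33), and its ranges overlapped. Pcdhgc3 went the other way, from 4.87 to 13.4 (median 7.16) in the cortex-like to 17.1 to 23.5 (median 21.2) in the striatum-like libraries, a ratio of 2.96 without overlap. Pcdhgc4 was at 0.958 to 3.75 (median 1.95) and 2.44 to 4.42 (median 3.35), with overlap. Pcdhgc5 was the most abundant entry by FPKM, at 12.0 to 41.2 (median 23.7) in the cortex-like and 29.2 to 60.6 (median 45.2) in the striatum-like libraries. Its FPKM rests on fewer effective fragments (median 331) than the lower FPKM of Pcdhgc3 (754), and 16.8% of its 75-base stretches occur in genes outside the family. Without Pcdhgc5, the γ medians differed 3.10-fold. The 2 α C-types together made up 39.5% to 50.9% of the α sum in the cortex-like and 27.8% to 37.9% in the striatum-like libraries, and the 3 γ C-types made up 44.1% to 63.1% and 35.8% to 50.6% of the γ sum.

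In the γ subcluster the alternate genes carried the largest ratios. Summed over the 12 Pcdhga genes, the medians were 19.6 and 59.4 scaled FPKM (3.02-fold), and over the 8 Pcdhgb entries 7.50 and 27.1 (3.61-fold), and neither pair of ranges overlapped. Pcdhga9 had the largest difference on the log2(scaled FPKM + 0.5) scale, at 0 to 2.34 (median 0.978) in the cortex-like and 3.66 to 7.55 (median 5.69) in the striatum-like libraries, a log2 difference of 2.12. Its value of 0 was that of the library that stood apart. Pcdhga8, at medians of 1.45 and 5.92, differed 4.08-fold, Pcdhgb7, at 1.04 and 4.63, 4.44-fold and Pcdhga7, at 1.64 and 6.53, 3.98-fold, none with overlap. The 3 most abundant Pcdhga genes over all libraries were Pcdhga11 (medians 2.57 and 7.79), Pcdhga6 (2.82 and 7.11) and Pcdhga7. Those of the Pcdhgb genes were Pcdhgb6 (2.42 and 7.66), Pcdhgb7 and Pcdhgb2 (1.18 and 3.57). Pcdhga1, the first γ gene and the lowest Pcdhga gene, was at medians of 0.669 and 1.60, and was the only Pcdhga gene whose ranges overlapped (highest cortex-like library 1.998, lowest striatum-like library 1.17). Pcdhgb8 was at medians of 0.0392 and 0.399, with 17 libraries below 1e-06 FPKM, so its level is unsure. Its second entry, Pcdhgb8-2, was at 0.179 and 1.65, with 7 such libraries and overlapping ranges, and its ratio of medians, 9.22, was larger than that of Pcdhga9 on a lower level. Over the 19 alternate γ entries with a median of at least 0.2, the rank correlation of the difference with position along the chromosome was 0.58, and it was 0.23 over 22 entries with the C-types included. These entries share constant exons and libraries. The lowest differences among them were those of the first genes, Pcdhga1 (0.83) and Pcdhga2 (0.87).

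In the β subcluster, 20 of the 21 entries that passed the filter were higher in the striatum-like libraries by the mean log2 level, and Pcdhb9 was the exception. Pcdhb9, the most abundant β gene, ranged from 2.94 to 6.92 (median 3.92) in the cortex-like and 1.80 to 2.91 (median 2.28) in the striatum-like libraries, 1.72-fold lower in the latter without overlap. It contributed 15.7% of the β sum in the median cortex-like library and 6.28% in the median striatum-like library. The 6 β genes with striatum-like libraries wholly above were Pcdhb14, Pcdhb15, Pcdhb16, Pcdhb17, Pcdhb18 and Pcdhb20, all in the distal part of the subcluster. Pcdhb15 had the largest difference on the log2(scaled FPKM + 0.5) scale (1.09), from a median of 0.50 (range 0.142 to 0.994) to 1.57 (1.25 to 2.12). Pcdhb18 went from a median of 0.763 to 2.02, Pcdhb16 from 1.73 to 2.95 and Pcdhb20 from 1.85 to 3.11. Pcdhb1, the first and lowest β gene, was at medians of 0.0225 and 0.10 scaled FPKM. In 13 libraries, 12 of them cortex-like, it was below 1e-06 FPKM. It had a median of 4.00 effective fragments and did not pass the filter, so its difference was not judged. The rank correlation of the difference with position was 0.45 over 21 β entries, that of the level 0.63.

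Summed over the 12 α alternates, the medians were 13.8 and 14.6 scaled FPKM, a ratio of 1.06. Of the 11 that passed the filter, none had ranges that did not overlap, and their median log2 difference was 0.12. The 3 most abundant were Pcdha12 (medians 2.14 and 2.2), Pcdha9 (2.08 and 1.35) and Pcdha7 (1.66 and 1.41), and the least abundant was Pcdha1 (0.405 and 0.325). Pcdha9 had the largest difference toward the cortex-like libraries (-0.40) and Pcdha8 the largest toward the striatum-like ones (0.89). Pcdha8 went from a median of 0.188 (0 to 0.688) to 0.815 (0.495 to 1.06), a ratio of 4.33 on a low level. Over the 14 α entries, the rank correlation with position was 0.72 for the level and -0.10 for the difference, and 0.77 and 0.05 without the C-types.

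Relative to the mean, the spread between libraries was larger in the cortex-like set for every member. The SD itself did not go 1 way. In the cortex-like and striatum-like sets it was 5.66 and 8.23 for Pcdhgc5 and 0.378 and 0.881 for Pcdhga9, but 1.41 and 0.476 for Pcdhac2. The median coefficient of variation of the Pcdhga genes was 25.4% in the cortex-like and 13.1% in the striatum-like libraries, that of the β genes 27.7% and 12.6% and that of the α alternates 32.7% and 17.9%. The cortex-like libraries also had fewer fragments, and held 44 of the member values below 1e-06 FPKM, against 3 in the striatum-like libraries. The parts of depth and of level in this spread were not tested.

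Exonic length moved with the difference between the 2 sets across all genes. Genes under 1000 nucleotides of exonic sequence (GENCODE M21) had a median log2 difference of -0.71, those from 4000 to 5000 nucleotides 0.20, and those from 8000 nucleotides 0.58. The 21 γ entries with a length had a median of 1.28, against a median of 0.35 (quartiles -0.33 and 0.98) for the 3668 other genes within their span of 4664 to 7627 nucleotides. The 21 β entries, at 2801 to 8695 nucleotides, had a median of 0.49 against 0.23 (quartiles -0.47 and 0.89) for 8255 other genes. The 13 α entries, at 5206 to 7535 nucleotides, had a median of 0.12 against 0.37 (quartiles -0.30 and 1.00) for 2755 genes. The γ median thus lay above the upper quartile of genes of like length, whereas the α and β medians lay between the quartiles. The part of length in the members' differences was not tested.

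**Figure D3:**
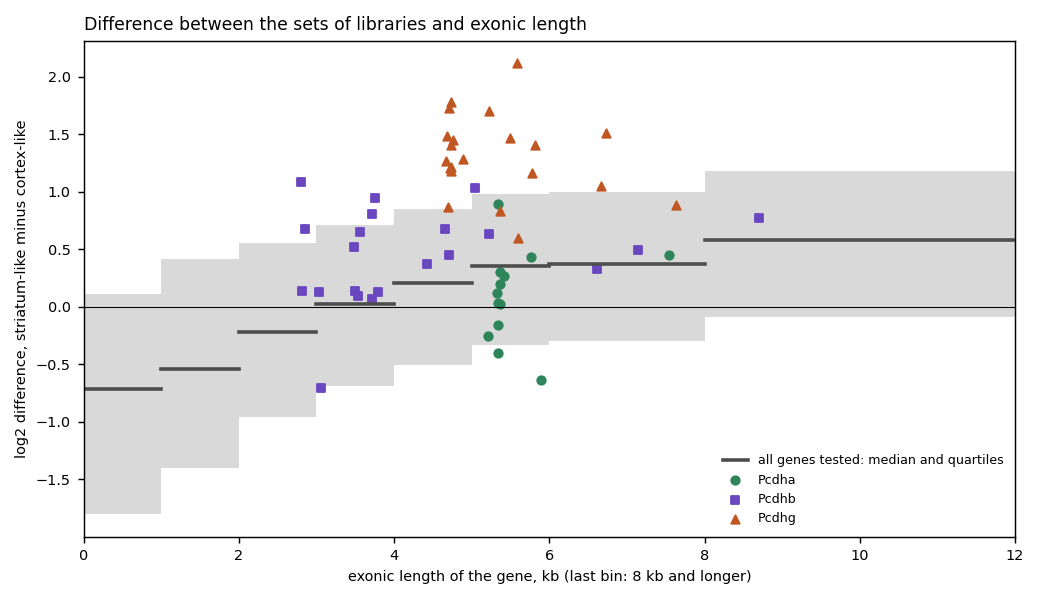
Log2 difference of mean log2(scaled FPKM + 0.5), striatum-like minus cortex-like (30 libraries each), against exonic length in kilobases for the 55 members with a length and a mean of at least 0.5 scaled FPKM (green circles α, purple squares β, orange triangles γ), with the median of all genes tested per length bin as a line and the quartiles in grey. The lines climb from -0.71 in the shortest to 0.58 in the longest bin, and most γ triangles stand above the grey area.

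Other cell type markers also differed. Summed scaled FPKM of 3 choroid plexus markers (Ttr, Folr1 and Kl) was 1.63 to 374 (median 7.07) in the cortex-like and 31.7 to 2074 (median 961) in the striatum-like libraries. Of the oligodendrocyte genes, Mobp was at 41.8 to 133 (median 75.2) and 195 to 347 (median 272), whereas Mog had medians of 42.3 and 31.5, in the other direction. The cortex-like library with the highest Ttr, labelled striatum Δ12/+ male 3 (364), also had the highest γ sum of its set, 90.3, and the lowest Slc17a7, 120.8 FPKM as deposited. The 2 striatum-like libraries with the lowest Ttr, 29.6 and 40.6, had γ sums of 157.5 and 152.9, beside a median of 156.0 in their set. Microglial markers (4 genes) summed to 18.2 to 35.1 and 37.4 to 52.1. Among them Csf1r (medians 7.51 and 17.65) and Cx3cr1 (2.635 and 10.58) were higher, whereas P2ry12 (10.27 and 9.93) and Tmem119 (6.60 and 6.90) stayed close. Astrocyte markers (4 genes) summed to 106 to 172 and 94.3 to 147. Slc1a3 (medians 79.6 and 56.5) and Aldh1l1 (10.8 and 9.24) were lower in the striatum-like libraries, Gfap (23.0 and 30.0) and Aqp4 (10.3 and 12.3) higher. Cortical excitatory markers (6 genes) summed to 120 to 232 and 6.68 to 85.4, and striatal projection neuron markers (8 genes) to 106 to 562 and 1071 to 2068. The 5 genes listed for interneurons summed to 405 to 655 and 308 to 432. Sst, Pvalb and Vip were lower in the striatum-like libraries. Gad1 and Gad2, which are not confined to interneurons, were higher there, and each of the 5 was without overlap. The 3 endothelial markers summed to 25.1 to 56.3 and 21.8 to 35.4. Among them Cldn5 had medians of 33.7 and 14.4, whereas Flt1, at 0.766 to 4.33 and 8.26 to 11.7, and Pecam1, with medians of 1.55 and 3.88, went the other way. The 3 leptomeningeal markers summed to 2.68 to 10.8 and 2.72 to 8.00. Folr1 was at 0 in the lowest cortex-like library, and no list summed to 0 in any library. The part of cell composition in the members' differences was not tested. Leaving out the 6 striatum-like libraries with more than 30 FPKM of Slc17a7 left the γ log2 ratio of means at 1.36, against 1.35 with all libraries.

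Genes beside the array did not share 1 direction. Among the 33 other genes that passed the filter inside the array or within 500 kilobases of it, 4 had striatum-like libraries wholly above. In 9 the cortex-like libraries were wholly above. The shares of all genes were 19.3% and 16.9%. The latter included Hdac3, a histone deacetylase downstream of the γ subcluster (medians 22.8 and 12.9), and the former Diaph1, an actin-nucleating formin between the γ subcluster and Hdac3 (4.001 and 9.93). Taf7, a subunit of the general transcription factor TFIID that lies between the β and γ subclusters, was at medians of 2.02 and 1.45 with overlapping ranges.

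The +/+ mice of the 2 lines allowed a test between labelled groups of which one was cortex-like and the other striatum-like. Genes were tested with limma on log2(scaled FPKM + 0.5) with labelled sex as a covariate, and called at a Benjamini-Hochberg adjusted p below 0.05 over all genes tested. Between the +/+ groups labelled striatum (6 against 6), 43 of 55 members were called, 38 higher and 5 lower in the KO line. Of all genes, 79.4% were called, so the share of members called, 78.2%, was not above the background. By direction, 41.9% of all genes were higher, against 38 of 55 members. All 22 γ entries tested were higher, with a median log2 difference of 1.23, 14 of 21 β entries were higher and 1 lower, and of 12 α entries 2 were higher and 4 lower. For the label cortex, 41 of 56 members were called, 37 higher and 4 lower, against 68% of all genes called and 36.5% higher. Again all 22 γ entries and 14 of 21 β entries were higher.

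Single members showed these differences plainly. Pcdhga9, in the groups labelled striatum, was at 0.779 to 1.07 (median 0.922) in the 6 +/+ libraries of the Δ12 line and at 3.66 to 5.48 (median 5.02) in those of the KO line, without overlap, a log2 difference of 1.91 ± 0.09 (SE, adjusted p = 5.093e-09). Pcdhgc3 was at 5.41 to 8.02 (median 7.40) and 20.4 to 22.9 (median 21.1), a difference of 1.53 ± 0.08 (adjusted p = 1.407e-08). Pcdhga7 and Pcdhga8 were higher by 1.66 ± 0.09 and 1.71 ± 0.09, and Pcdhgb6 by 1.37 ± 0.09. The members lower in the KO line were Pcdhac2, Pcdhb9, Pcdha9, Pcdha7 and Pcdha5. Pcdhac2 was at 9.66 to 12.8 (median 10.1) in the Δ12 line and 5.48 to 7.06 (median 6.30) in the KO line, a difference of -0.71 ± 0.08 (adjusted p = 6.297e-06). Pcdhb9 was at 3.10 to 5.17 (median 3.92) and 1.81 to 2.76 (median 2.29), a difference of -0.67 ± 0.11 (adjusted p = 0.0001883).

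For the +/+ groups labelled cortex, the members with the smallest adjusted p were all higher in the KO line. Pcdhgb7 had a log2 difference of 1.84 ± 0.11 (adjusted p = 9.221e-08), and Pcdhgb6 1.36 ± 0.11, Pcdhga10 1.40 ± 0.12, Pcdhb18 1.11 ± 0.10 and Pcdhgb1 1.5 ± 0.13 followed. Pcdhac2 was again lower, at 8.42 to 13.3 (median 11.5) in the Δ12 line and 6.45 to 7.28 (median 6.76) in the KO line, a difference of -0.64 ± 0.12.

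Within the Δ12 line, the Δ12/Δ12 groups gave a comparison without a change of line, since the libraries labelled male were cortex-like and those labelled female striatum-like (3 against 3). In the group labelled striatum, 37 of 56 members were called, 35 higher and 2 lower in the females, against 67.4% of all genes called and 35.4% higher. In the group labelled cortex, 40 of 56 were called, 37 higher and 3 lower, against 67.9% called and 36.6% higher. All 22 γ entries tested were higher in both. With FPKM as deposited, 24 members were called in the group labelled cortex, against 60.4% of all genes. Pcdhgc3 was at 5.83, 5.98 and 6.23 in the males and 21.0, 22.6 and 23.5 in the females labelled striatum, a log2 difference of 1.81 ± 0.09 (limma, adjusted p = 3.978e-05). Pcdhga9 was at 0.899, 1.22 and 1.22 in these males and 5.59, 5.60 and 5.95 in these females, a difference of 1.95 ± 0.12. Pcdhga11, Pcdhga7 and Pcdhgb4 were higher by 1.29 ± 0.09, 1.65 ± 0.12 and 1.55 ± 0.15. Under the label cortex, Pcdhga9 was at 0.654, 0.693 and 0.990 in the males and 5.29, 6.56 and 7.55 in the females, a difference of 2.44 ± 0.17 (limma, adjusted p = 7.978e-05). Pcdhgb2, Pcdhb15, Pcdhga8 and Pcdhgc3 were higher by 1.49 ± 0.10, 1.42 ± 0.10, 1.65 ± 0.14 and 1.45 ± 0.12. Pcdhac2 was at 8.50, 9.88 and 10.4 in the males and 5.93, 5.95 and 6.59 in the females, a log2 difference of -0.60 ± 0.11. Pcdhb9 was at 4.09, 4.72 and 5.47 in these males and 2.11, 2.36 and 2.51 in these females, a difference of -0.89 ± 0.13.

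These 4 comparisons have no library in common, although the labels draw both tissue labels from the same mice. Of 55 members tested in all 4, 30 were called higher in every one, against 30.4% of all genes, and 2 were called lower in every one, Pcdhac2 and Pcdhb9, against 26.4% of all genes. The 30 were all 22 γ entries tested and the β genes Pcdhb10, Pcdhb13, Pcdhb14, Pcdhb15, Pcdhb16, Pcdhb17, Pcdhb18 and Pcdhb20. No α entry was among them. The γ entries share constant exons, so they are not 22 separate measurements.

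**Figure D4:**
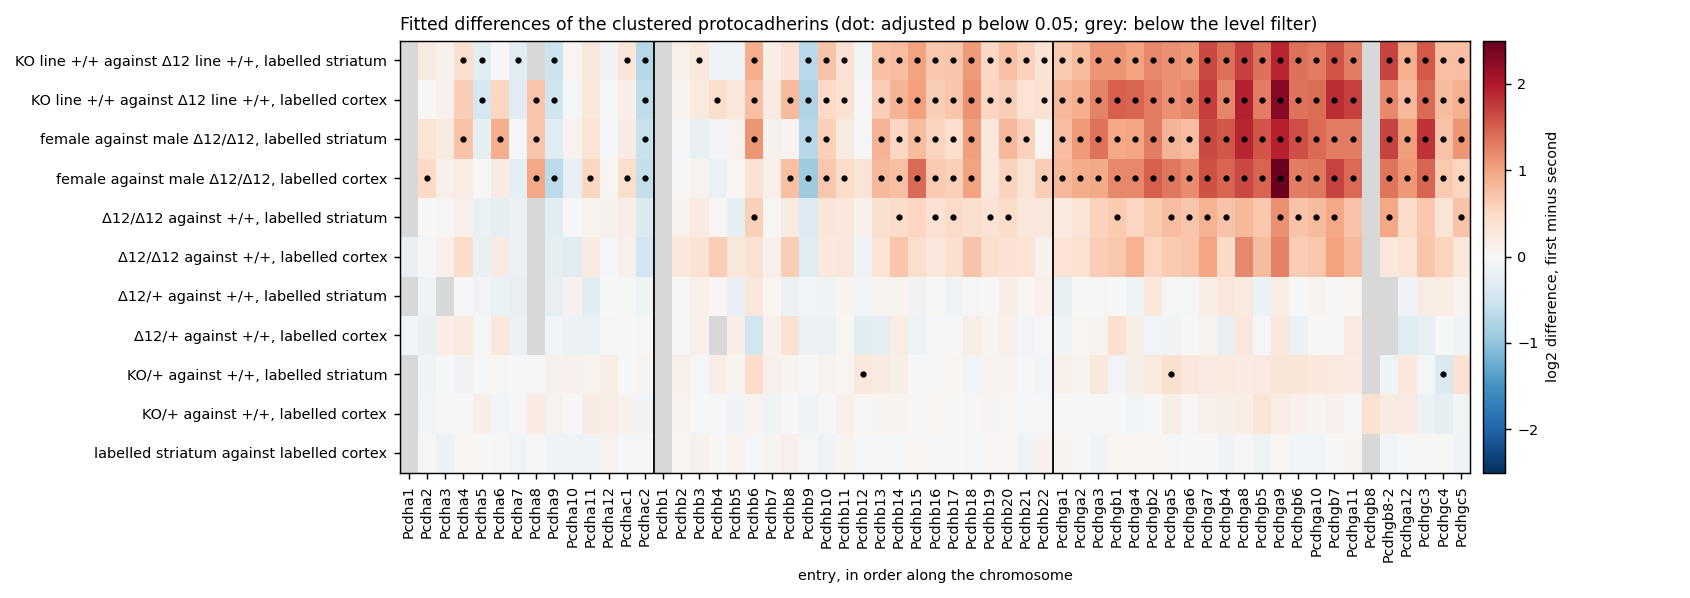
Fitted log2 differences (first group minus second, log2(scaled FPKM + 0.5), red above and blue below 0) of the 59 entries in chromosomal order across 11 comparisons of labelled groups, with a dot where the limma adjusted p was below 0.05 and grey where an entry did not pass the level filter. The 4 upper rows are red in the 22 γ entries tested, with Pcdhgb8 in grey. The Δ12/+ rows, the labelled cortex rows for KO/+ and Δ12/Δ12 and the row of tissue labels hold no dot.

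The tissue labels themselves did not separate the members. Between the 30 libraries labelled striatum and the 30 labelled cortex, with line, genotype and labelled sex in the model, limma called 0 of 56 members and 0% of all genes, and 1 member had an unadjusted p below 0.05. The median log2 difference of the members was -0.01, with a median SE of 0.06.

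The KO allele was compared with +/+ within the KO line, where all libraries were striatum-like. In the groups labelled striatum, 3 of 56 members (5.36%) were called, against 6.91% of all genes. Pcdhga5 was at 2.84 to 3.86 (median 3.13) in +/+ and 3.88 to 5.06 (median 4.48) in KO/+ libraries, a log2 difference of 0.40 ± 0.08 (limma, adjusted p = 0.0150), without overlap. Pcdhb12 was at 1.26 to 1.67 (median 1.51) and 1.68 to 2.07 (median 2.02), a difference of 0.29 ± 0.07 (adjusted p = 0.0307), and its ranges just did not overlap. Pcdhgc4 was lower in KO/+, at 3.10 to 4.33 (median 3.70) and 2.44 to 3.37 (median 2.75), a difference of -0.36 ± 0.09 (adjusted p = 0.0377), with overlap, and the labelled males differed by -0.14 and the labelled females by -0.58. None of the 3 was called with FPKM as deposited, nor with the replicate number as a block. The γ sums were 126.3 to 152.0 (median 139.6) in +/+ and 152.2 to 170.8 (median 165.3) in KO/+ libraries, a description without a test. In the same comparison 6 of 8 striatal projection neuron markers were called higher in KO/+, with a median log2 difference over the 8 of 0.48. Of the cortical excitatory markers 1 of 5 was called higher. Of the astrocyte markers 1 of 4, and of the genes listed for interneurons 1 of 5, were called lower. The oligodendrocyte gene Mobp was lower (-0.26 ± 0.07, limma adjusted p = 0.0403). The part of cell composition in the differences between KO/+ and +/+ was not tested. Leaving out 1 library moved the count of called members to 1 or to 6. It was 1 without +/+ male 1, female 1 or female 3, or KO/+ male 3, female 1 or female 2. It was 6 without +/+ male 3 or KO/+ male 1. The share of all genes called in these smaller fits is not given. Between KO/+ and +/+ labelled cortex, limma called 0 of 57 members, against 0.0885% of all genes, and 6 members had an unadjusted p below 0.05. Here the γ sums overlapped, at 152 to 170 (median 158) in +/+ and 150 to 189 (median 156) in KO/+. The effect of KO/+ was not called as different between tissue labels for any of 56 members (limma, 0% of all genes called, 5 members at an unadjusted p below 0.05), and the median SE of that difference was 0.12.

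The Δ12/+ genotype was compared with +/+ within the Δ12 line, where all libraries were cortex-like. In the groups labelled striatum limma called 0 of 53 members, against 0.00663% of all genes, and no member had an unadjusted p below 0.05. The γ sums were 52.3 to 60.4 (median 57.9) in +/+ and 49.7 to 90.3 (median 57.1) in Δ12/+. Between Δ12/+ and +/+ labelled cortex, 0 of 54 members were called, against 0.0662% of all genes, and 2 had an unadjusted p below 0.05. The γ sums were 50.2 to 88.1 (median 61.5) and 52.5 to 68.7 (median 58.7). The effect of Δ12/+ was not called as different between tissue labels for any of 54 members (limma, 0% of all genes called, 2 members at an unadjusted p below 0.05). The median SE of a member was 0.14 in the groups labelled striatum and 0.18 in those labelled cortex.

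The comparison of Δ12/Δ12 with +/+ mixed the 2 sets, since only the females labelled Δ12/Δ12 were striatum-like. In the groups labelled striatum, 17 of 55 members were called, all higher in Δ12/Δ12, against 28.3% of all genes called and 14.7% higher. They were 11 γ and 6 β entries, led by Pcdhga6 (0.70 ± 0.13, limma adjusted p = 0.0292), Pcdhb17 (0.49 ± 0.09), Pcdhb14 (0.47 ± 0.11), Pcdhgb7 (0.97 ± 0.23) and Pcdhga9 (1.15 ± 0.29). For Pcdhga9, the labelled males differed by 0.24 and the labelled females by 2.07. Among labelled males alone, where both genotypes were cortex-like, 0 of 52 members were called, against 0.0133% of all genes, with 3 at an unadjusted p below 0.05 and a median log2 difference of 0.05. Among labelled females alone, 38 of 55 were called, against 71.1% of all genes. With expression-defined tissue in place of sex in the model, 0 members and 0.0711% of all genes were called. There 5 members had an unadjusted p below 0.05, and the median log2 difference of the members was 0.03 in place of 0.35. In that model the striatum-like class held only females labelled Δ12/Δ12, so the genotype term compared the males labelled Δ12/Δ12 with the +/+ libraries. It thus overlaps with the fit of labelled males alone and is not a separate check. Leaving out any 1 of the 6 females brought the count to 0, and leaving out +/+ male 1 brought it to 26. The share of all genes called in these smaller fits is not given, so these counts have no background beside them. Between Δ12/Δ12 and +/+ labelled cortex, 0 of 56 members were called, against 0.924% of all genes, and 17 members had an unadjusted p below 0.05, with a median log2 difference of 0.36. Without +/+ male 2, 9 were called, and the share of all genes called in that fit is not given. Among labelled males alone, 0 of 53 were called (limma, 1 at an unadjusted p below 0.05), against 0.119% of all genes, and the median was -0.03. Among labelled females alone 34 of 57 were called, against 56.2% of all genes. The effect of Δ12/Δ12 was not called as different between tissue labels for any of 55 members (limma, 0% of all genes called, 0 members at an unadjusted p below 0.05).

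The clustered genes were set beside other genes of the same biology. Of 11 non-clustered protocadherins tested between the +/+ groups labelled striatum, 6 were higher and 5 lower in the KO line. Pcdh9 (2.13 ± 0.07), Pcdh17 (1.83 ± 0.07) and Pcdh10 (1.18 ± 0.08), single genes outside the array, were higher, whereas Pcdh20 (-1.80 ± 0.13) was lower. Of 13 genes known to act on the promoters of the array, such as CTCF, cohesin and DNA methyltransferase genes, 11 were higher and 2 lower. Among them were the cohesin subunit Smc1a (1.58 ± 0.09), the cohesin loader Nipbl (1.16 ± 0.07), the histone methyltransferase Setdb1 (1.11 ± 0.08) and Smchd1 (0.87 ± 0.08), a chromatin protein that silences clustered genes. Ctcf had medians of 7.38 in the cortex-like and 11.9 in the striatum-like libraries, and Stag1, another cohesin subunit, 79.2 and 15.5. Of 14 genes for partners of the proteins at the membrane, 10 were higher and 2 lower. Nckap1 (1.15 ± 0.05) and Brk1 (-2.21 ± 0.09), both of the WAVE actin complex, went in opposite directions, as did Nlgn2 (1.71 ± 0.09), a postsynaptic neuroligin, and Ptk2 (-1.73 ± 0.09), the focal adhesion kinase. In the same comparison, 79.4% of all genes were called. Between Δ12/+ and +/+, none of the genes of these 3 lists was called in either tissue label (limma, adjusted p at or above 0.05). Between KO/+ and +/+ labelled striatum, 2 of 11 non-clustered protocadherins were lower. Of 14 partners, 2 were higher and 1 lower, and none of 13 regulators was called. The share of all genes called there was 6.91%.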

How the data were processed

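RNA of 60 brain libraries had been prepared by the authors with rRNA depletion and a directional kit. The submitters' processing notes name bcl2fastq 2.20, Trimmomatic 0.30, TopHat2 2.0.14, SAMtools 1.3, HTSeq 0.6.1p1 and GRCm38.p4, without their roles. Each deposited table held the FPKM of 1 library with confidence bounds, laid out as Cufflinks writes them. No counts were used. Entries whose status was not OK in some library (23, no member) were dropped. FPKM were scaled by the median of ratios over 13235 genes (scaling factors 0.761 to 1.38). Entries with a mean of at least 0.5 scaled FPKM over the libraries of a fit were tested with limma 3.58.1 in R 4.3.3 on log2(scaled FPKM + 0.5). Labelled sex was a covariate, except where females were compared with males or a single sex was fitted alone. The tissue labels were tested in a model with line, genotype and sex. The statistics were checked on simulated data. The text of the paper used here gives no model for these tests. Depth was estimated from the bounds of genes of at least 2000 nucleotides, but only 19.8% to 26.6% of these came out at whole fragments within 0.05, so it is approximate.

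The members and lists were chosen with earlier results of these data known. Named were the C-types, the 3 highest and the lowest member of each group of names, and up to 5 called members per comparison with the smallest adjusted p and the same sign in labelled males and females, or all called members where there were at most 5. Others named in the text were chosen after their values were seen. As alternatives, FPKM as deposited or quantile normalization, pseudocounts of 0.1 and 1, no filter, other covariates, a replicate block and the removal of each library were tried. Leaving out Pcdhgc5 or the library that stood apart, and the fits of labelled males or females alone, were added after seeing the data. Sequences are not shown, and the summed oligodendrocyte list is not reported here. Same-numbered libraries of different groups are labelled as different mice, and the correlation of their deviations from group means was -0.23 to 0.16, so the numbers did not pair them. The labels give the 2 libraries of 1 mouse the same number, but in 14 of 30 mice their sex-linked transcripts disagreed, and the test of tissue labels gave 0 called members with the mouse as a block too.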

Additional observations from a re-analysis of the deposited data

Results flagged for a closer look

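The 5 C-type genes and the 3 subcluster sums were checked for libraries far from the others in each of 10 groups of 6, which made 80 checks. Here 3 libraries lay farther out than Dixon's 95% limit, where chance alone would flag about 1 in 20 groups of like libraries. The Δ12/Δ12 groups mix cortex-like and striatum-like libraries. A stray library was harder to flag in them, and that rate need not hold there. Pcdhgc3 was at 13.4 scaled FPKM in the library labelled cortex +/+ male 2 of the Δ12 line, where the other 5 were at 6.35 to 8.00. It was at 12.7 in the library labelled striatum Δ12/+ male 3, where the other 5 were at 6.82 to 8.38. Pcdhac1 was at 1.67 in the library labelled cortex KO/+ male 2, where the other 5 were at 1.28 to 1.36.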

How the results depend on the processing

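With FPKM as deposited, called members numbered 24 between females and males labelled Δ12/Δ12 in the cortex label, against 60.4% of all genes. They numbered 0 between KO/+ and +/+ labelled striatum and 9 between Δ12/Δ12 and +/+ labelled striatum. On that scale the median member difference between striatum-like and cortex-like libraries was 0.40, and the log2 ratios of mean sums were -0.53 (α), 0.17 (β) and 0.98 (γ), against -0.16, 0.54 and 1.35 as reported. The median over the β members alone was 0.49, and without Pcdhgc5 the γ ratio was 1.59. For Δ12/Δ12 against +/+ labelled striatum, the count was 10 with quantile normalization, 9 with no filter and 0 without the sex covariate. It was 0 with expression-defined tissue in place of sex (0.0711% of all genes), 0 in labelled males only (0.0133%) and 38 in labelled females only (71.1%). In the cortex label, labelled females only gave 34, against 56.2% of all genes. With expression-defined tissue in place of sex, Pcdhgb4 (-0.0674) and Pcdhgb6 (-0.0904) reversed. In that model the genotype term compares only the males labelled Δ12/Δ12 with the +/+ libraries. With the replicate number as a block, the counts for KO/+ and for Δ12/Δ12 against +/+ labelled striatum went to 0 and 0. The numbers share no mouse there, and the block moved no other count of called members by over 1.5 times. It gave 40 and 38 for the line comparisons. Leaving out 1 library in turn gave 39 to 44 and 34 to 40 called members between the lines (labels striatum and cortex). The same removal gave 34 to 37 and 35 to 41 between females and males labelled Δ12/Δ12. It gave 1 to 6 for KO/+ labelled striatum, and 0 to 26 and 0 to 9 for Δ12/Δ12 against +/+. With all libraries, the shares of all genes called were, in this order, 79.4% and 68%, 67.4% and 67.9%, 6.91%, and 28.3% and 0.924%. For other counts here, the share under the same setting is not given. The 2 pseudocounts and the inclusion of entries of any status changed no count by over 1.5 times. The cause of these changes was not tested.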
